A study of Homo sapiens with 15 samples.

Results

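Neuroendocrine prostate cancer arises when adenocarcinoma cells give up their luminal identity and take on traits of neurons and hormone-secreting cells. A small set of transcription factors is known for specifying such lineages, and 9 of them were examined here: NEUROD1, INSM1, SOX2, POU3F2, NKX2-1, ONECUT2, FOXA2, PROX1 and MYCN. They were listed by name as lineage factors of neuroendocrine prostate cancer, with no threshold on a measured value although earlier results of these data were known, and each was found once among the 58302 genes of the count tables.

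The levels come from RNA-seq of C4-2B, an established prostate adenocarcinoma line derived from LNCaP, labelled as wild type and grown in RPMI with fetal bovine serum, with no drug or siRNA named for these samples. The series labels 15 libraries in 5 groups of 3 replicates, and the counts used here are those of the 3 C4-2B libraries. The groups of neuroendocrine-like cells (DKD and ER, each with scr or siPax5) were not analysed here, so no change between conditions is given. In the study C4-2B is the adenocarcinoma parent with which the neuroendocrine-like line is compared, and the question here was at which level the lineage factors stand in that parent. It is 1 cell line, and the labels do not say whether the replicates were separate cultures, while the study's methods speak of independent replicates for its experiments in general. SDs measure the spread between these libraries, which may be technical, and p-values hold for these libraries alone.

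The libraries held between 44992971 and 49569026 counts in genes. TPM, the unit of level used here, is a gene's count divided by the length of its exons and scaled to the same total in each library, so it allows levels of different genes to be set side by side. The label of the cells was checked against markers. All 5 luminal prostate markers were high, with mean TPM from 197 (KRT8) to 1988 (KLK3). The basal markers KRT5 and TP63 had 1 count and 0 counts over the 3 libraries, KRT14 was at 0.865 TPM, and the summed level of the leukocyte markers PTPRC and CD3E was at most 0.0884 TPM in any library. VIM and COL1A1, markers of mesenchymal cells, were at 20.2 and 7.09 TPM, while COL1A2 had 0 counts. Neuroendocrine markers summed to between 2.49 and 3.04 TPM per library. Of these, CHGA and SYP were at 1.38 and 1.31 TPM and reached 1 TPM in all 3 libraries. CHGB and SNAP25 had 1 and 3 counts over the 3 libraries.

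ONECUT2 was transcribed at a moderate level in C4-2B, POU3F2 was at a trace level, and the other 7 factors had between 0 and 16 counts over all 3 libraries. ONECUT2 alone supplied 10433 of the 10520 counts of the 9 genes, or 99.2%. The 3 libraries all reached 1 TPM for 1 of the 9 factors (11.1%), against a background of 32.8% of all genes and 61.2% of the 19708 protein-coding genes. The median of the 9 mean levels was 0.0346 TPM, beside 0.171 TPM over all genes and 5.88 TPM over protein-coding genes.

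**Figure D1:**
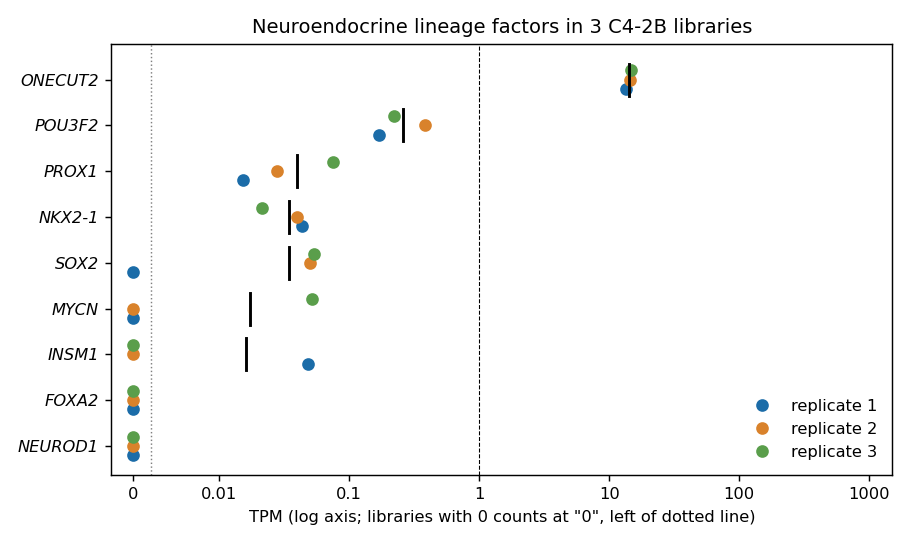
TPM of each lineage factor (log axis) in the 3 C4-2B libraries, 1 coloured point per library, with a black bar at the mean and libraries with 0 counts drawn at the left edge. ONECUT2 lies between 13.4 and 14.6 TPM, POU3F2 between 0.170 and 0.386, and every other factor under 0.1 TPM, left of the dashed line at 1 TPM.

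Because the factors differed so widely in level, the sequence before the transcription start is shown for the 2 highest, ONECUT2 and POU3F2, and for SOX2, the classical plasticity factor with almost no counts. These are the 250 bases upstream of the RefSeq start on GRCh38.p14, read 5′ to 3′ on the gene's strand, with each CG dinucleotide (CpG, the site of DNA methylation) in capitals. All 3 genes lie on the plus strand: ONECUT2 at chr18:57435124-57435373, POU3F2 at chr6:98834324-98834573 and SOX2 at chr3:181711675-181711924.
ONECUT2: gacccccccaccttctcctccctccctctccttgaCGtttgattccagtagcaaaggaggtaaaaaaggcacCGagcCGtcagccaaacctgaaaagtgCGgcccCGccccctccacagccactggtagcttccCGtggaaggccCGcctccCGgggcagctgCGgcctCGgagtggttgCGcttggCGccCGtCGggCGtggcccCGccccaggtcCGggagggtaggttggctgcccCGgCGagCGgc
POU3F2: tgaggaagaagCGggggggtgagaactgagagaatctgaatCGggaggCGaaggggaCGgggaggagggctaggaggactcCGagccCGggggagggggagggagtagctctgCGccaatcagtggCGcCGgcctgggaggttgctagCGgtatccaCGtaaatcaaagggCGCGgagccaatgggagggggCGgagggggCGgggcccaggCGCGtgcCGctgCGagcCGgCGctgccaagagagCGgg
SOX2: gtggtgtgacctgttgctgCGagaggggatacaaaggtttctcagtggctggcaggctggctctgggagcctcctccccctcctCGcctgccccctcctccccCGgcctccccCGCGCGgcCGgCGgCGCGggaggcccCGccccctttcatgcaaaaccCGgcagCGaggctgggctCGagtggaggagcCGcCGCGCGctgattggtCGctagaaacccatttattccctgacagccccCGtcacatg

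The ONECUT2 and SOX2 sequences each hold 20 CpG and are 68.8% G or C, and the mean levels were 14.2 and 0.0346 TPM. Whether CpG content bears on level was not tested. The ONECUT2 sequence ends before the first deposited exon base, at 57435685, whereas that of SOX2 ends on its first, at 181711924. POU3F2 holds 22 CpG at 69.2% G or C. RefSeq sequences were found for 6 of the 9 factors (7 starts, since NKX2-1 has 2), and not for INSM1, FOXA2 or PROX1. Of these 7, 5 had both a G or C content of at least 50% and an observed-to-expected CpG ratio of at least 0.6, compared with 45.0% of all 35116 upstream sequences. The exceptions were MYCN, with 11 CpG, and one NKX2-1 start, with 7. In the deposited annotation the NEUROD1 sequence lies wholly under exons, as do 54 and 137 of the 250 bases before the NKX2-1 starts and 52 of those before MYCN. TATAAA, searched on both strands, occurred in 0 of the 7 and in 10.7% of all sequences. CCAAT, also on both strands, occurred before POU3F2 and SOX2 and in 32.0% of all. The E-box CANNTG, which reads the same on both strands, occurred in 4 of the 7 and in 61.8% of all.

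ONECUT2 (ENSG00000119547) encodes a cut-homeodomain factor of liver, endocrine and neural lineages. It lies on chromosome 18, 57435685 to 57491297, plus strand, and had 3165, 3757 and 3511 counts in replicates 1, 2 and 3. Per length this was 13.4, 14.5 and 14.6 TPM, a mean of 14.2 ± 0.661 TPM (SD, n = 3). Its mean was above that of 61.1% of protein-coding genes. No exon base of ONECUT2 lies under another gene.

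The length of ONECUT2 matters for this value. Its exons cover 16234 bases, and in the canonical GENCODE transcript 14578 bases (88.7%) are 3′ untranslated, against 1512 coding bases in 2 exons. Without division by length ONECUT2 had 74.0 ± 3.19 CPM (SD, n = 3), its count scaled to the library total alone. Which part of the transcript the reads came from cannot be seen in counts per gene.

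Replicate 1 of ONECUT2 was lower than replicates 2 and 3, which lay close together. In a chi-square test of the 3 counts against library size, the Benjamini-Hochberg adjusted p of ONECUT2 was 0.0210 across the 22229 genes tested, past the threshold of 0.05. That background was wide, with 17.3% of all genes tested past the same threshold. When the chi-square was divided by 2, because the 2 mates of a read pair were counted separately, 0.792% of genes passed and ONECUT2 did not (adjusted p = 0.437). Without replicate 1 the adjusted p of ONECUT2 was 0.972. The level itself ranged only from 14.0 to 14.6 TPM when each replicate was left out.

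POU3F2 (ENSG00000184486), also known as BRN2, encodes a POU-homeodomain factor of neuronal differentiation. It is a gene of 1 exon on chromosome 6, 98834592 to 98839470, plus strand. Its counts were 12, 30 and 16, which is 0.170, 0.386 and 0.222 TPM. The mean was 0.259 ± 0.113 TPM (SD, n = 3), with an exact Poisson interval of 0.197 to 0.335 TPM at 95% from its 58 counts. Replicate 2 was highest, and the difference between libraries did not pass the chi-square test (adjusted p = 0.102 over all genes tested, p = 0.0264 unadjusted). At this depth a gene of the length of POU3F2 at 1 TPM would have had between 70.7 and 77.7 counts per library, so all 3 libraries stood well under that level.

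PROX1 (ENSG00000117707, chromosome 1, 213983181 to 214041502, plus strand) encodes a homeodomain factor of lymphatic endothelium, liver and neural progenitors. It had 2, 4 and 10 counts, or 0.0155, 0.0281 and 0.0758 TPM, with a mean of 0.0398 ± 0.0318 TPM (SD, n = 3). Replicate 3 held 10 of the 16 counts, and without it the mean was 0.0218 TPM. PROX1 has 8928 exon bases, so that 1 TPM would have given it at least 129 counts per library. The endothelial markers PECAM1 and CDH5 were at 0.0396 and 0.0224 TPM.

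SOX2 (ENSG00000181449, chromosome 3, 181711924 to 181714436, plus strand) encodes an HMG-box factor of pluripotent cells and neural progenitors, known for its part in lineage plasticity of prostate cancer. It is a gene of 1 exon and had 0, 2 and 2 counts, which is 0, 0.050 and 0.0539 TPM. NKX2-1 (ENSG00000136352, chromosome 14, 36516392 to 36521149, minus strand) encodes the homeodomain factor of thyroid and lung that is used as a small-cell carcinoma marker. Its counts were 2, 2 and 1, or 0.0436, 0.0397 and 0.0214 TPM. NKX2-1 was thus seen in every library and SOX2 was missing from replicate 1, yet their mean levels were nearly equal, at 0.0349 ± 0.0119 and 0.0346 ± 0.0300 TPM (SD, n = 3 each). The exact Poisson intervals at 95% were 0.0113 to 0.0814 TPM for NKX2-1 and 0.00943 to 0.0887 TPM for SOX2.

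INSM1 (ENSG00000173404, chromosome 20, 20368121 to 20370949, plus strand) encodes a zinc-finger repressor used as a neuroendocrine marker in pathology. Its 2 counts were both in replicate 1, where it reached 0.0488 TPM. MYCN (ENSG00000134323, chromosome 2, 15940564 to 15947007, plus strand) encodes a helix-loop-helix leucine zipper factor known from neuroblastoma and from neuroendocrine prostate cancer. Its 2 counts were both in replicate 3, at 0.0520 TPM. Each of these genes therefore rests on a single library, and without that library its mean is 0. The upper bounds of the exact Poisson intervals at 95% were 0.0587 TPM for INSM1 and 0.0627 TPM for MYCN.

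NEUROD1 and FOXA2 had 0 counts in all 3 libraries. NEUROD1 (ENSG00000162992, chromosome 2, 181673088 to 181680876, minus strand) encodes a helix-loop-helix factor of neurons and endocrine pancreas. For it 3 counts over the 3 libraries, the limit set here for a count of 0, would be 0.0200 TPM. FOXA2 (ENSG00000125798, chromosome 20, 22581005 to 22585455, minus strand) encodes a forkhead pioneer factor of endoderm, and its limit is 0.0255 TPM. Of the 19708 protein-coding genes, 2481 likewise had 0 counts. Intervals and limits cover counting error only, and are too narrow where both mates of a pair were counted.

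In order of mean level the factors ran ONECUT2, POU3F2, PROX1, NKX2-1, SOX2, MYCN, INSM1, with NEUROD1 and FOXA2 level at 0. ONECUT2 was 54.8 times POU3F2 in mean TPM, and POU3F2 was 6.51 times PROX1. In both of these steps the 3 libraries of the higher gene all lay above the 3 of the lower gene. An exact two-sided permutation test of 3 values against 3 gave p = 0.1 for each step, the smallest p that this design allows, so neither could pass 0.05. Pairing the values by library, a choice made after the data were examined, gave an exact permutation p of 0.25 for each, the smallest that 3 pairs allow, with the higher gene above in 3 of 3 libraries. Every later step had overlapping or equal values, with exact permutation p from 0.7 to 1 where a p could be given, so none of these neighbours differed beyond its spread. Further apart in the order, PROX1 and NKX2-1 had counts in every library and NEUROD1 and FOXA2 in none.

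**Figure D2:**
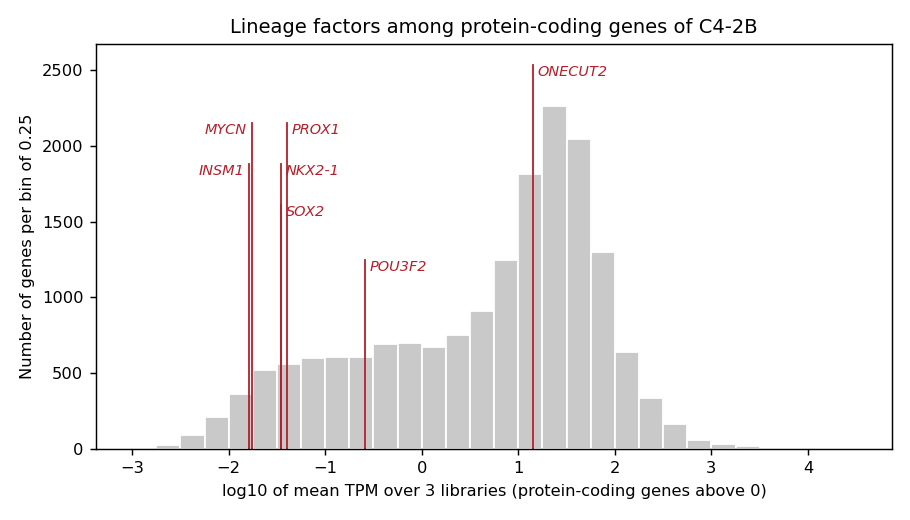
Histogram of log10 mean TPM over the 3 libraries for protein-coding genes above 0, in bins of 0.25, with red lines at the 7 lineage factors above 0. ONECUT2 stands within the main peak of the histogram, and POU3F2 and the 5 factors below it stand in the low tail.

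Exons of neighbouring genes can remove reads from a gene, since the authors' counting dropped any read that touched exons of several genes. Exon bases of 5 of the 9 factors lay under another gene: 12.7% for NKX2-1, 7.13% for NEUROD1, 3.77% for MYCN, 2.69% for FOXA2 and 1.92% for PROX1. Reads in those bases are missing from the counts, and with lengths outside overlaps the mean of NKX2-1 was 0.0381 TPM in place of 0.0349, while those of PROX1 and MYCN were slightly lower, at 0.0387 and 0.0172 TPM. The transcripts that overlap or lie within 10 kb were low too, also beside ONECUT2, whose 1 neighbour had 0 counts. Of 23 such neighbours, 17 had 0 counts and none had more than 27. Over the whole data, 21278 of 58302 genes had 0 counts.

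SOX2-OT, the long non-coding gene that spans SOX2 on the same strand, had 5, 12 and 4 counts (mean 0.0384 TPM) and shares no exon base with it. The antisense genes NKX2-1-AS1, with 402 bases shared with NKX2-1, and MYCNOS, with 98 bases shared with MYCN, had 0 counts. CERKL, whose exons share 236 bases with NEUROD1, had 4 counts in all, and LINC00261 beside FOXA2 had 0. Counting ignored strand, so reads in exon bases shared with an antisense gene were dropped, and other reads were assigned by position alone.

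Of 31 listed relatives of these factors, 9 (29.0%) reached 1 TPM in all libraries, which is near the background of 32.8% of all genes and under the 61.2% of protein-coding genes. FOXA1, the forkhead relative of FOXA2 and a pioneer factor of luminal prostate cells, was at 330 ± 3.85 TPM (SD, n = 3). With FOXA2 at 0 counts, no ratio to it could be formed. Set against the limit of 3 counts over the 3 libraries for FOXA2, FOXA1 was 12923-fold higher. A wider limit would lower this value. FOXA3 had 0 counts. The forkhead family of the list thus stood at both ends of the scale.

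SOX4, a SoxC factor of progenitor cells, was at 138 ± 1.92 TPM (SD, n = 3), a ratio to SOX2 of 3973 with a counting interval of 1552 to 14583. SOX12 was at 96.9 TPM, SOX9 at 13.3 and SOX11 at 3.47. In contrast SOX1 had 2 counts and SOX3 had 0, so the SoxB1 group, to which SOX2 belongs, was near 0 as a whole.

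MYCL, the relative of MYCN known from small-cell lung cancer, was at 7.16 ± 0.374 TPM (SD, n = 3). Its ratio to MYCN was 413, with a wide counting interval of 114 to 3410 because MYCN had 2 counts. PROX2 was at 1.41 ± 0.106 TPM, which is 35.5 times PROX1 with a counting interval of 21.8 to 62.1. Other genes cover 8.52% of the PROX2 exon bases.

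The POU relatives of POU3F2 split in the same manner. POU2F1, a widely transcribed POU factor, was at 20.8 ± 0.597 TPM (SD, n = 3). POU2F3, the tuft-cell factor, was at 0.888 TPM, and within the POU3 class POU3F1 was at 0.101 TPM while POU3F3 and POU3F4 had 0 counts. POU3F2 was thus the highest of the POU3 class listed, although at a trace level.

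ONECUT2 showed the opposite pattern, as the one expressed member of its own class. ONECUT1 had 0, 12 and 5 counts, a mean of 0.0946 ± 0.0981 TPM (SD, n = 3), and ONECUT3 had 2 counts. ONECUT2 was 150 times ONECUT1 in mean TPM. CUX1, a more distant cut-homeodomain gene, was at 21.2 ± 0.188 TPM, 1.49 times ONECUT2.

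No relative reached 1 TPM in all libraries in the 3 other families. The highest relative of NKX2-1 was NKX2-2, a factor of neural tube and endocrine pancreas, at 0.895 ± 0.141 TPM (SD, n = 3), with 30.5% of its exon bases under other genes. NKX2-8, which lies on chromosome 14 like NKX2-1, had 0, 6 and 16 counts. Its total was under the 30 counts required for the test between libraries, so this spread was not tested. Of the 7 listed relatives of NEUROD1, ATOH1 was highest at 0.195 ± 0.199 TPM, and NEUROG1 and NEUROD6 had 0 counts. INSM2 had 2 counts, as did INSM1.

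**Figure D3:**
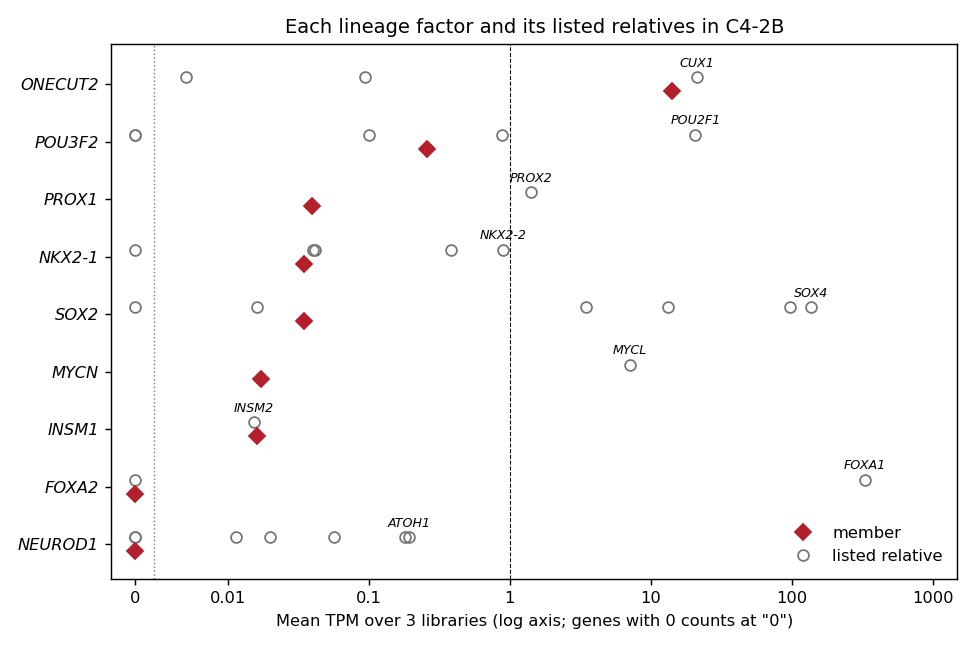
Mean TPM over 3 libraries (log axis) of each lineage factor (red diamond) and of its listed relatives (open circles), with the highest relative named and genes with 0 counts at the left edge. FOXA1 at 330 TPM and SOX4 at 138 TPM stand far to the right of FOXA2 and SOX2, whereas ONECUT2 at 14.2 TPM stands beside CUX1 at 21.2 TPM.

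Transcripts of the proteins with which these factors work were also examined. All 14 genes of the partner and cofactor list reached 1 TPM in all libraries, against 32.8% of all genes and 61.2% of protein-coding genes. Their median was 42.0 TPM. The E proteins, which pair with NEUROD1, were at 60.1 TPM (TCF3), 30.3 TPM (TCF12) and 2.34 TPM (TCF4). The corepressor genes KDM1A, RCOR1, HDAC1 and HDAC2, whose products are recruited by INSM1-type repressors, ranged from 28.4 to 183 TPM. AURKA, the kinase that stabilises MYCN protein, was at 74.7 ± 1.94 TPM, MAX, its dimer partner, at 43.1 ± 1.58, and FBXW7, which marks it for degradation, at 7.22 ± 0.247 (TPM, SD, n = 3). NR2F2, a partner of PROX1, was at 39.9 TPM. POU5F1, which acts with SOX2 in pluripotent cells, was at 5.53 TPM, and its many pseudogene copies make that count uncertain.

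Of 14 genes known as transcriptional readouts of these factors, 4 (28.6%) reached 1 TPM in all libraries. This is near the 32.8% of all genes and under the 61.2% of protein-coding genes. Of the 14, 3 had 0 counts, as did 21278 of all 58302 genes, and the median was 0.202 TPM. DLL3, the Notch ligand targeted in small-cell carcinoma, had 642, 706 and 676 counts. This is 16.9, 16.9 and 17.5 TPM, a mean of 17.1 ± 0.319 TPM (SD, n = 3), slightly above ONECUT2 per length, and the TPM values of the 2 genes did not overlap. By CPM the order turned, with DLL3 at 14.4 CPM and ONECUT2 at 74.0 CPM. PEG10, a gene of retroviral origin linked to ONECUT2, was at 2.73 ± 0.417 TPM. ODC1, the polyamine synthesis enzyme, was highest of the list at 529 TPM. It was listed for the MYC family as a whole, and MYCN had 2 counts. TTR, a hepatic target of FOXA2, was at 3.16 ± 0.262 TPM beside the 0 counts of FOXA2.

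The readouts of lung and pluripotent cells were low. NAPSA and SFTPB, lung genes under NKX2-1, were at 0.681 and 0.313 TPM. NANOG had 1 count, and LIN28B had 3, 1 and 0 counts. The 3 genes without a count were SCGB3A2 (lung), INS (endocrine pancreas) and LYVE1 (lymphatic endothelium).

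The other neural and endocrine factors were mostly low, with 2 of 13 (15.4%) at 1 TPM in all libraries. The background was 32.8% of all genes and 61.2% of protein-coding genes. Their median was 0.259 TPM. HES6, a helix-loop-helix gene of neural differentiation, was highest at 88.4 ± 5.19 TPM (SD, n = 3), which is 6.22 times ONECUT2 per length. By CPM, without division by length, HES6 was the lower of the pair, at 57.8 CPM against 74.0 CPM. LHX2, a LIM-homeodomain factor of the developing forebrain, was at 5.56 TPM. POU4F1, a sensory neuron factor, had 65, 129 and 65 counts with a mean of 1.25 TPM, and replicate 2 was the only library above 1 TPM. Exons of other genes cover 27.7% of its bases. ISL1, at the list median of 0.259 TPM, had a mean almost equal to that of POU3F2, and POU4F2 had 0 counts.

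Luminal prostate factors were the contrast. Of 9 listed, 8 (88.9%) reached 1 TPM in all libraries, against 32.8% of all genes and 61.2% of protein-coding genes. The median was 235 TPM. EHF was highest at 528 ± 14.1 TPM, followed by SPDEF at 338 ± 3.77, FOXA1, HOXB13 at 241 ± 5.70 and GATA2 at 235 ± 1.29 (TPM, SD, n = 3). FOXA1 was 23.2 times ONECUT2 in mean TPM. KLF5, at 14.8 ± 1.25 TPM, was the luminal factor nearest to ONECUT2, and its 3 libraries, from 13.3 to 15.6 TPM, overlapped those of ONECUT2. The exception was GATA3, with 6, 10 and 28 counts and a mean of 0.301 TPM.

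**Figure D4:**
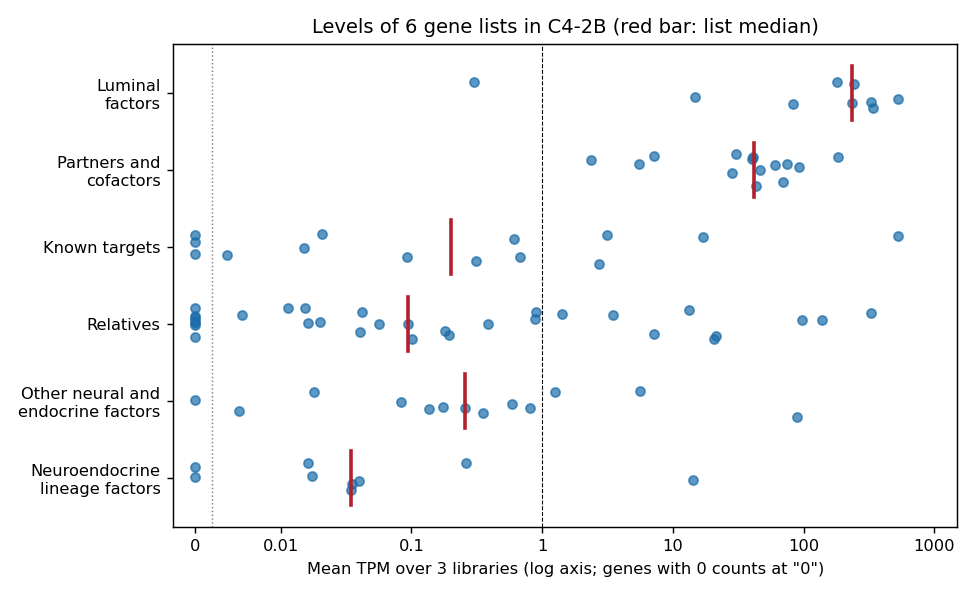
Mean TPM over 3 libraries (log axis) of every gene in 6 lists, 1 point per gene, with a red bar at each list median and genes with 0 counts at the left edge. The medians are 0.0346 TPM for the neuroendocrine lineage factors, 0.259 for other neural and endocrine factors, 0.0946 for relatives, 0.202 for known targets, 42.0 for partners and cofactors and 235 for luminal factors.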

How the data were processed

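RNA from C4-2B cells was, per the labels, cleared of ribosomal RNA and turned into directional libraries, and the study's methods give paired reads. The authors aligned them to GRCh38 with STAR 2.7.0f, per the submitters' processing notes. Values deposited by the authors are unnormalized counts for each gene, made, per the file headers, with featureCounts 1.6.3 and Ensembl release 90, with no option for strand, pairs or multiple alignments, so mates count separately. Gene length, another deposited value, is the union of exons. Symbols were matched by Ensembl identifier. Gene types and transcript parts came from GENCODE release 44 (GRCh38) and upstream sequences from RefSeq (GRCh38.p14).

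TPM was computed over all 58302 genes of each library. Poisson intervals are exact at 95%, and 3 counts over the 3 libraries set the limit for 0 counts. Each gene with at least 30 counts was compared between libraries by chi-square (2 degrees of freedom) against library sizes with TMM factors (edgeR 4.0.16), Benjamini-Hochberg adjusted over all genes. This compares libraries, not conditions, and was tested on simulated data. The simulated counts were independent Poisson values, without mates counted separately. The simulation therefore cannot show how the undivided test behaves on these data. Each pair of libraries had genes past the threshold, and n = 3 counts libraries, which may be technical replicates. Neighbours in the order of levels were compared by exact permutation (scipy 1.17.1). Alternatives were CPM, another denominator, lengths outside overlaps, other thresholds and scalings (DESeq2 1.42.0) and leaving out each replicate. The 9 factors and the gene lists were chosen with earlier results of these data known, so lists are described and not tested. A listed gene is not reported here and was left out of its list. Named genes are the factors, their neighbours within 10 kb, and list genes that are highest or lowest of a list or family, above 1 TPM, or at 0 counts, and others were named for their role after their values were seen.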

Additional observations from a re-analysis of the deposited data

How the results depend on the processing

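The number of lineage factors at 1 TPM or more in all libraries was 1 under every alternative run: thresholds of 0.5 and 2 TPM, CPM, another denominator, lengths outside overlaps, and leaving out each replicate. ONECUT2 was that gene, with a mean between 13.5 and 20.6 TPM, or 74.0 by CPM. The number of neighbouring pairs in the order with no overlap was 2, and from 2 to 3 with 1 replicate left out. ONECUT2 and POU3F2 were the 2 highest in each case, while the factors below them changed places. Genes that differed between libraries numbered 3835, 176 with the chi-square divided by 2, and from 1383 to 2323 with 1 replicate left out, where fewer libraries were tested. Other scalings and minimum counts gave from 3450 to 4059. The median of the relatives went from 0.0946 TPM to values from 0.0605 to 0.119 with 1 replicate left out, the lowest without replicate 2. By CPM, which does not divide by length, the medians were 87.1 CPM for partners and cofactors, 0.267 for known targets and 207 for luminal factors. The luminal median was 224 TPM with lengths outside overlaps. No paired analysis was possible between groups, because the analysed libraries belong to a single group. The pairing by library given above compared genes within that group. Depth limits the 7 lowest factors: each rests on at most 16 counts.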

Other observations

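Counts of the lineage factors other than ONECUT2 were mostly even numbers: 12 of their 13 values above 0, which ran from 1 to 30, and 7 of the 13 were exactly 2. Over all genes, values from 1 to 20 were even in 54.8%, 55.9% and 56.1% of cases in replicates 1, 2 and 3, and a count of 2 was more frequent than a count of 1 in each library (2585 against 1875 genes in replicate 1). The part that separate counting of mates has in this was not tested.

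Differences between libraries were also looked up for the other listed genes. Of the listed relatives, partners, targets, neural and luminal factors, only EHF passed with the chi-square divided by 2 (adjusted p = 0.0361). Of all genes tested, 0.792% passed in this way. The TPM of EHF, at 512, 534 and 539, spanned a narrow range. By the undivided chi-square 0 of 11 relatives tested, 3 of 14 partners and 1 of 7 targets passed. So did 3 of 7 neural and 4 of 9 luminal factors, against 17.3% of all genes tested. Among them POU4F1 had an adjusted p of 0.000313 (0.131 when divided), with 129 of its 259 counts in replicate 2. HES6 had one of 0.00095 (0.19 when divided), and HOXB13 one of 0.00202 (0.242 when divided). GATA3 had an adjusted p of 0.00195 by the undivided chi-square and 0.239 when divided, with 28 of its 44 counts in replicate 3.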
